A study of Mus musculus with 32 samples.

Results

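The 33 genes described here encode subunits of the repressor complexes that zinc finger factors such as Bcl11b bring to DNA, and they were chosen by name. They comprise 13 genes of the NuRD complex, 3 of the CoREST and REST group, 5 of Polycomb repressive complex 2 (PRC2), 7 of Polycomb repressive complex 1 (PRC1) and 5 other corepressors. All 33 were found among the 24475 genes of both RNA tables, with the same transcript model in each. The study compared what Bcl11b does in mouse cells of the early T lineage and in group 2 innate lymphoid cells (ILC2). It used Scid.adh.2c2, a mouse pro-T-like thymic lymphoma line, and ILC2/b6, an ILC2 line kept in IL-2, IL-7 and IL-33. In each line, 2 RNA libraries came from cells transduced with sgControl-CFP and 2 from cells transduced with sgBcl11b-CFP, a guide RNA against Bcl11b with a CFP marker. ChIP-seq gave 1 peak list per line for each of Bcl11b, GATA3, Runx1 and Runx3 in cells with no guide named. Each line stands for 1 culture lineage, and the labels do not say whether the 2 libraries of a group came from separate transductions, so p-values measure only the spread between libraries.

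NuRD joins an ATP-driven nucleosome remodeller (Chd3 or Chd4) to the histone deacetylases Hdac1 and Hdac2. Mta proteins form its scaffold, Rbbp4 and Rbbp7 bind histones, Mbd2 or Mbd3 links it to DNA, and Gatad2a or Gatad2b holds remodeller and deacetylase together. PRC2 places methyl groups on lysine 27 of histone H3 through Ezh1 or Ezh2, while PRC1 places ubiquitin on histone H2A through Rnf2 or Ring1 and, in its canonical form, reads the PRC2 mark through a Cbx protein. CoREST couples the demethylase Kdm1a (LSD1) to Hdac1 and Hdac2 and is recruited by REST. In T cell precursors, Bcl11b is known to bind NuRD and to be needed for commitment to the T lineage.

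Expression is given as RPKM, reads scaled to transcript length and library depth. Libraries held 34.7 to 43.7 M reads (M, megareads) by the smallest steps between low RPKM values, and at least 137 reads lay behind each value of a member. The mRNA of Bcl11b stood at 47.0 and 49.5 RPKM (control guide) and at 47.1 and 46.8 RPKM (Bcl11b guide) in Scid.adh.2c2. For ILC2/b6 these values were 6.85 and 6.33 against 7.04 and 7.24 RPKM. Neither difference passed the test (limma adjusted p = 0.455 and 0.278), so the mRNA level does not check the guide labels, and Bcl11b protein was not measured in the files used here. Of 12 pro-T markers, 10 reached 1 RPKM in the Scid.adh.2c2 controls (Rag2 and Dntt did not), and 12 of 12 ILC2 markers did so in the ILC2/b6 controls. The 2 Scid.adh.2c2 control libraries stood farther apart than other replicate pairs, with a chi-square of 11.8 per degree of freedom over genes against 2.01 to 4.41.

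Ezh2 and Cbx8, 1 gene that fell and 1 that rose in Scid.adh.2c2, each had a Bcl11b peak in both lines that reached into the 250 bases before the start, and the 250 bases before their RefSeq starts (GRCm38.p6, minus strand, 5′ to 3′) are shown as the sequence those peaks reach into. Ezh2 lies at chr6:47595031-47595280 in that build and Cbx8 at chr11:119040914-119041163. The peak lists use mm9, and the starts may differ between the builds' annotations. By the mm9 starts, the Ezh2 peaks cover the last 86 bases of the window in Scid.adh.2c2 and the last 72 in ILC2/b6, and the Cbx8 peaks cover 134 and 25 bases at its far end. Capitals mark matches, on either strand, to the RUNX core TGTGGT, its variant TGCGGT, the GATA motif AGATAA or the ETS motif CGGAAG.
Ezh2: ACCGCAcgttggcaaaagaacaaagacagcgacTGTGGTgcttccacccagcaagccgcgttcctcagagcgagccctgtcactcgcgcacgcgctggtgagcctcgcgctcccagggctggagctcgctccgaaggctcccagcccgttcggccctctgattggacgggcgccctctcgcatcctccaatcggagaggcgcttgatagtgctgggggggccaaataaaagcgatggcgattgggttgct
Cbx8: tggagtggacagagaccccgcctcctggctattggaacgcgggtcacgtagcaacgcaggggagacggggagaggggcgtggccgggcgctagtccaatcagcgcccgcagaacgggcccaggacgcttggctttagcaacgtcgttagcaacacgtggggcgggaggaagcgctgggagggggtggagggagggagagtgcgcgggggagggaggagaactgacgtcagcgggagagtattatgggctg
The Ezh2 window held 1 RUNX core and 1 RUNX variant and no GATA or ETS match, and the Cbx8 window held none of the 4 motifs. Both Ezh2 matches, at -217 and -250 bases, lie outside the Bcl11b peaks. Both were rich in C and G, at 63.6% and 66.4%, with 23 and 22 CpG dinucleotides. Among 31 such windows of 25 members, 7 held TGTGGT, 4 TGCGGT, 2 AGATAA and 5 CGGAAG. Among the 32851 windows of the RefSeq table, 14% held TGTGGT, 5.1% TGCGGT, 9.99% AGATAA and 13.6% CGGAAG. A match is a stretch of letters, and none says whether a factor binds there.

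In the control libraries, most of these genes were higher in Scid.adh.2c2 than in ILC2/b6. The levels did not overlap between lines for 31 of 33, with 27 higher in Scid.adh.2c2 (81.8%) and 4 higher in ILC2/b6. Among the 8831 genes at or above 1 RPKM in all 4 control libraries, 64% were higher in Scid.adh.2c2 without overlap. The 2 tables were made separately, so these differences are given as a description with no test. A difference of at least 2-fold was seen for 8 members (24.2%), against 29.7% of all those genes. Jarid2, the PRC2 cofactor, was 19.0 and 18.5 RPKM in Scid.adh.2c2 and 3.36 and 3.45 RPKM in ILC2/b6, a 5.51-fold difference. Rnf2, the main ubiquitin ligase of PRC1, was 18.2 and 18.6 RPKM against 5.60 and 5.77 RPKM, a 3.24-fold difference. Chd3, Chd4, Ezh2, Cbx2 and Ring1 were 2.04-fold to 2.64-fold higher in Scid.adh.2c2. Ezh1 stood on the other side, with 3.54 and 3.85 RPKM in Scid.adh.2c2 and 8.23 and 8.16 RPKM in ILC2/b6.

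Transduction with the Bcl11b guide moved 18 of the 33 genes in Scid.adh.2c2, 11 upward and 7 downward (54.5%; called at a limma adjusted p under 0.05 over 10221 genes). This share lies near the background: 57.8% of all genes tested were called in this line, 35.1% higher and 22.7% lower, and 61.5% of genes with a mean of at least 10 RPKM. The changes were small, with a median absolute log2 fold change of 0.17 among the members and 0.22 among all genes, and the largest was 0.52. In ILC2/b6, 4 of 33 were called (12.1%), 2 higher and 2 lower, against 14.5% of 10526 genes, 8.32% higher and 6.21% lower. After each library was centred on its median gene, 2 rose and 4 fell there (6.17% and 8.64% of all genes), the 2 further falls being Hdac1 and Bmi1. All 33 were above 2 RPKM in each of the 8 libraries, so none entered the test through 1 group alone.

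**Figure D1:**
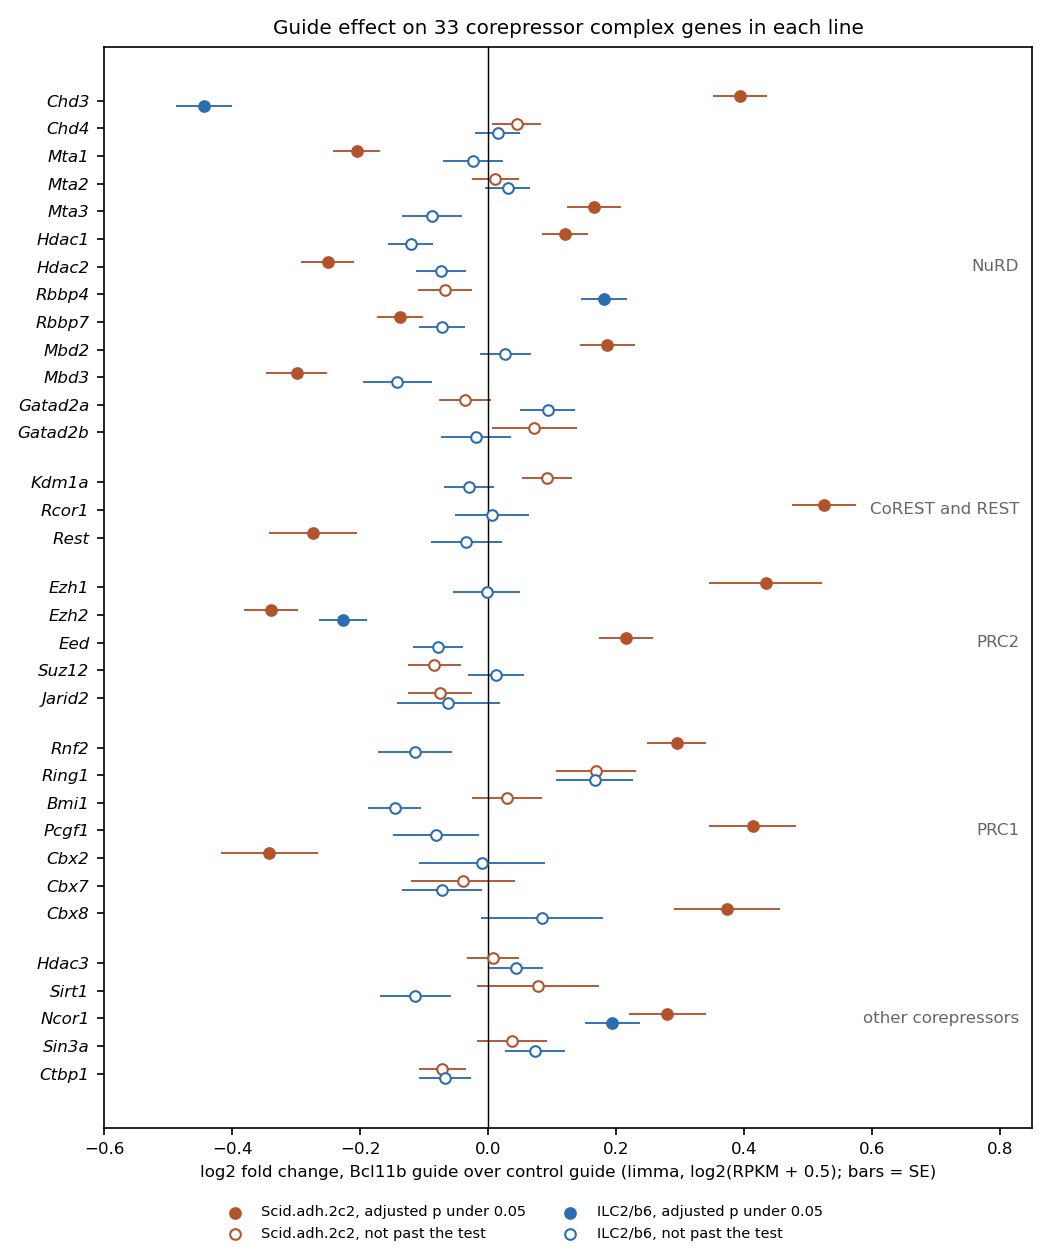
Log2 fold change of each of the 33 genes, Bcl11b guide over control guide, with its standard error, in Scid.adh.2c2 (brown) and ILC2/b6 (blue); filled points passed the test and the genes are grouped by complex. Chd3 is filled on opposite sides of 0 in the 2 lines, whereas Ezh2 is filled below 0 and Ncor1 above 0 in both.

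Of the 13 NuRD members, 4 rose and 4 fell in Scid.adh.2c2 in the values as deposited, against 35.1% and 22.7% of all genes. Once each library was centred on its median gene, 1 rose and 7 fell, against 24.1% and 38.5% of all genes. Chd3, a remodeller at chr11:69156775-69182928 (mm9, minus strand), showed the largest change. It was 52.7 and 55.5 RPKM in the Scid.adh.2c2 controls and 70.2 and 72.2 RPKM with the Bcl11b guide, a log2 rise of 0.39 ± 0.04 (SE, n = 2 libraries per group; limma adjusted p = 0.000208). In ILC2/b6, Chd3 was 20.6 and 20.5 RPKM in the controls and 14.7 and 15.2 RPKM with the guide, where it fell by 0.44 ± 0.04 on the log2 scale (limma adjusted p = 0.00119). The groups did not overlap in either line and lay in opposite orders. The difference of the 2 effects, ILC2/b6 minus Scid.adh.2c2, was -0.84 ± 0.06 (limma adjusted p = 9.39e-06). Chd4, the other remodeller and the highest member in the Scid.adh.2c2 controls, was not called in either line, with 122 and 126 RPKM against 128 and 127 RPKM in Scid.adh.2c2 and 49.3 and 49.2 RPKM against 49.8 and 49.7 RPKM in ILC2/b6. Chd3 made up 30.2% and 30.5% of the summed RPKM of Chd3 and Chd4 in the Scid.adh.2c2 controls and 35.3% and 36.2% with the guide. In ILC2/b6 its share was 29.4% in both controls and 22.8% and 23.5% with the guide. The 2 lines thus began near 30% and stood apart with the guide.

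Of the other NuRD pairs, Mbd2 with Mbd3 and Hdac1 with Hdac2 were unequal too in Scid.adh.2c2. Mbd3, the methyl-CpG-binding family member that does not need DNA methylation to bind, was 86.9 and 86.0 RPKM in the controls and 67.3 and 73.2 RPKM with the guide, and fell by 0.30 ± 0.05 (log2, SE; limma adjusted p = 0.00155). Mbd2, which binds methylated DNA, rose from 38.9 and 37.3 RPKM to 44.2 and 42.6 RPKM, a log2 change of 0.19 ± 0.04 (limma adjusted p = 0.00836). The share of Mbd2 in the pair was 30.9% and 30.2% in the controls and 39.7% and 36.8% with the guide. Hdac2 fell by 0.25 ± 0.04 (limma adjusted p = 0.00181), from 73.8 and 76.5 RPKM to 64.5 and 61.7 RPKM. Hdac1, its paralog, was 98.5 and 99.6 RPKM against 108 and 108 RPKM (log2 change 0.12, limma adjusted p = 0.0230). Of the scaffold proteins, Mta1 fell by 0.21 and Mta3 rose by 0.17, and Mta2 was level at 75.8 and 77.2 RPKM against 76.5 and 77.6 RPKM. Rbbp7 fell by 0.14 (limma adjusted p = 0.0139). Without guide replicate 1, Mta3, Hdac1, Rbbp7 and Mbd2 were not called (limma adjusted p = 0.143, 0.171, 0.147 and 0.106), and without guide replicate 2, Mta3, Hdac1 and Rbbp7 were not (limma adjusted p = 0.0978, 0.184 and 0.120). Rbbp4, Gatad2a and Gatad2b were not called, with log2 changes of -0.07, -0.04 and 0.07. Centring each library on its median gene moved log2 changes in this line by -0.13, and on that scale 7 members rose and 14 fell, against 24.1% and 38.5% of all genes. The 7 further genes that fell there were Mta2, Hdac3, Rbbp4, Gatad2a, Suz12, Jarid2 and Ctbp1. The rises of Mta3, Hdac1, Mbd2 and Eed did not pass the test there (Hdac1 turned to -0.0138), whereas those of Chd3, Rcor1, Ezh1, Rnf2, Pcgf1, Cbx8 and Ncor1 did.

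In ILC2/b6, Rbbp4 was the only NuRD gene that rose, from 43.2 and 42.7 RPKM to 48.9 and 48.6 RPKM (log2 0.18 ± 0.04, limma adjusted p = 0.0176). Its call did not hold without either guide library (limma adjusted p = 0.117 and 0.107). The effect on Rbbp4 differed between lines by 0.25 (limma adjusted p = 0.00468). Mbd3 was lower in both guide libraries of ILC2/b6 as well (59.9 and 53.6 against 51.0 and 51.6 RPKM) but did not pass the test (limma adjusted p = 0.130). The effects on it in the 2 lines were not shown to differ as deposited (limma adjusted p = 0.150) and differed after median centring (0.0411).

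In the CoREST and REST group, Rcor1, the CoREST scaffold itself, had the largest log2 change of the 33 genes in Scid.adh.2c2. It stood at 20.4 and 22 RPKM in the controls and at 30.6 and 30.9 RPKM with the guide (log2 0.52 ± 0.05, limma adjusted p = 0.000114). In ILC2/b6 it was 12.0 and 13.3 RPKM against 12.6 and 12.8 RPKM, and the guide libraries lay between the controls. The effect differed between the lines by -0.52 ± 0.08 (limma adjusted p = 0.00109). Rest, the DNA-binding repressor of neuronal genes, fell in Scid.adh.2c2 from 13.6 and 13.8 RPKM to 11.9 and 10.6 RPKM (log2 -0.27 ± 0.07, limma adjusted p = 0.0125), and this call did not hold without guide replicate 2 (limma adjusted p = 0.152) or with no filter on low values (0.0514). Kdm1a, the demethylase, was 40.6 and 41.9 RPKM against 44.1 and 43.8 RPKM and was not called (limma adjusted p = 0.0781). In ILC2/b6, 0 of these 3 genes passed limma's test, and 0 had an unadjusted p under 0.05.

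**Figure D2:**
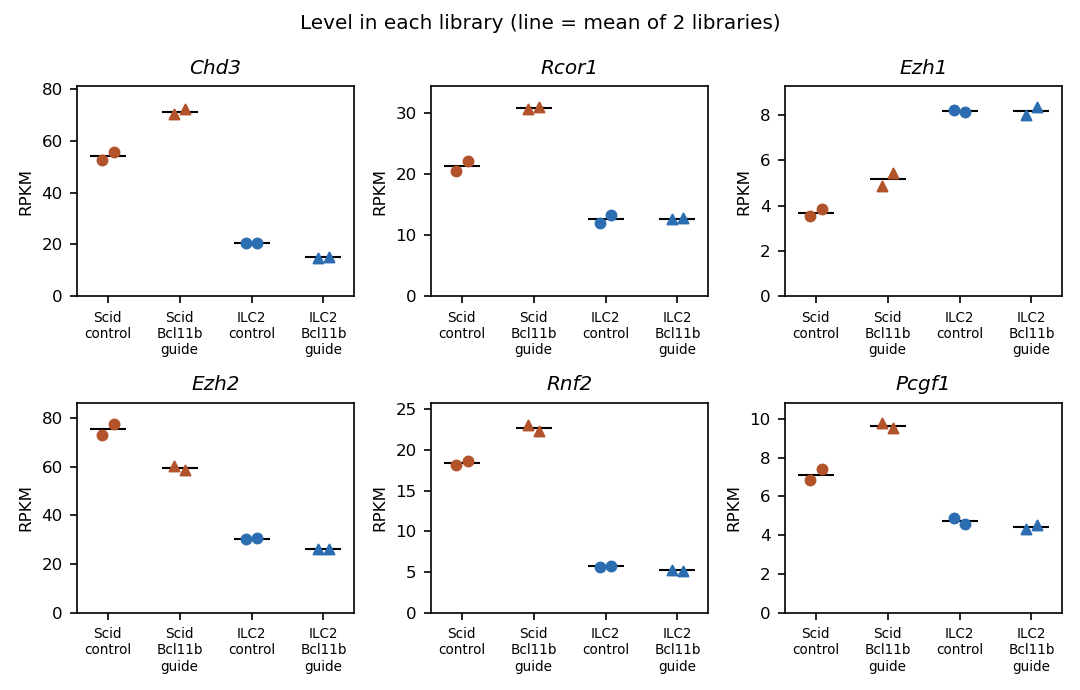
RPKM of 6 genes in each of the 8 RNA libraries, control guide (circles) and Bcl11b guide (triangles), in Scid.adh.2c2 (brown) and ILC2/b6 (blue), with the mean of the 2 libraries as a line; each axis starts at 0. Chd3 rises in Scid.adh.2c2 and falls in ILC2/b6, Ezh2 falls in both, and the other 4 rise in Scid.adh.2c2 alone among the calls.

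Within PRC2, the 2 alternative methyltransferases moved in opposite directions in Scid.adh.2c2: the abundant Ezh2 fell and the scarce Ezh1 rose, so their levels came closer. Ezh2, the form that predominates in dividing cells, was 73.2 and 77.4 RPKM in the Scid.adh.2c2 controls and 60.1 and 58.7 RPKM with the guide (log2 -0.34 ± 0.04, limma adjusted p = 0.000456). It also fell in ILC2/b6, from 30.4 and 30.5 RPKM to 26 and 26 RPKM (log2 -0.23 ± 0.04, limma adjusted p = 0.00937), although not past the test without guide replicate 1 or 2 (limma adjusted p = 0.0514 and 0.0556). The 2 effects were not shown to differ as deposited (0.11 ± 0.05, limma adjusted p = 0.111), whereas they differed after median centring (0.22, limma adjusted p = 0.00533), under quantile normalization (0.0214) and without Scid.adh.2c2 control replicate 1 (0.0309). Ezh1, the form also found in resting cells, rose in Scid.adh.2c2 from 3.54 and 3.85 RPKM to 4.88 and 5.46 RPKM (log2 0.43 ± 0.09, limma adjusted p = 0.00487), a call lost without guide replicate 2 (limma adjusted p = 0.0772, the highest of the 12 settings). In ILC2/b6, Ezh1 stayed at 8.23 and 8.16 RPKM against 8.02 and 8.36 RPKM, and the effect differed between lines by -0.44 ± 0.10 (limma adjusted p = 0.00768). Ezh1 made up 4.62% and 4.74% of the summed RPKM of the pair in the Scid.adh.2c2 controls and 7.51% and 8.51% with the guide. In ILC2/b6 its share was 21.3% and 21.1% in the controls and 23.6% and 24.4% with the guide. The groups did not overlap in either line.

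Eed, the PRC2 subunit that binds methylated lysine 27, rose in Scid.adh.2c2 from 30.5 and 31.0 RPKM to 35.1 and 36.5 RPKM (log2 0.22 ± 0.04, limma adjusted p = 0.00390), a call lost without guide replicate 2 (limma adjusted p = 0.0677) and under median centring (0.149). The difference of the effects on Eed, ILC2/b6 minus Scid.adh.2c2, was -0.29 (limma adjusted p = 0.002). Suz12, the core scaffold, and Jarid2 were not called in either line, with log2 changes between -0.08 and 0.01. Suz12 was 52.2 and 55.0 RPKM against 50.9 and 50.2 RPKM in Scid.adh.2c2, and it fell there after median centring (log2 -0.22, limma adjusted p = 0.00338), under quantile normalization (0.0236) and without control replicate 1 (0.0125). The summed level of 25 cell cycle genes was 2088 to 2094 RPKM in the Scid.adh.2c2 controls and 1871 to 1878 RPKM with the guide. As deposited, 3 rose (Mki67, Ccnb2 and Ccne1) and 11 fell, against 35.1% and 22.7% of all genes. The falls were Mcm2 to Mcm7, Pcna, Tyms, Rrm2, Cdc6 and Tk1, whereas Top2a, Ccna2, Plk1, Aurka, Aurkb and Cdk1 were not called. After median centring 0 rose and 20 fell, against 24.1% and 38.5% of all genes. In ILC2/b6 the sums were 1324 to 1329 RPKM and 1253 to 1281 RPKM. By limma 7 fell and 0 rose there at an unadjusted p under 0.05. After adjustment 4 fell (16%, against 6.21% of all genes) and 0 rose (against 8.32%). Rrm2, 1 of these 4, went from 160 and 155 RPKM to 132 and 131 RPKM. The part of the cell cycle genes in the change of Ezh2 was not tested.

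**Figure D3:**
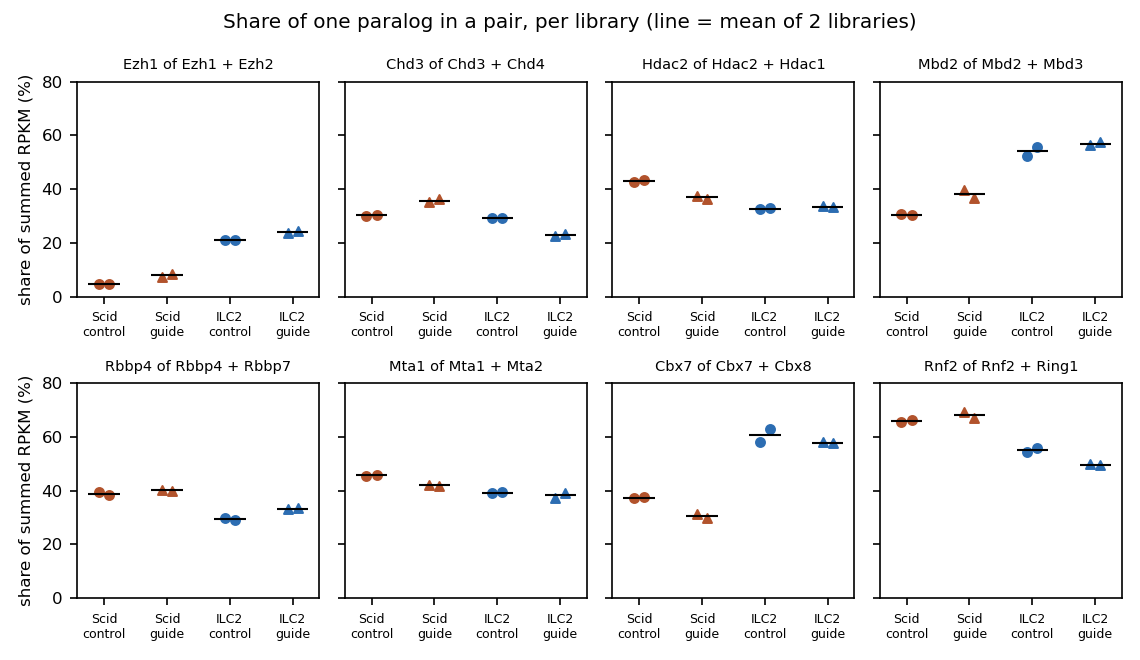
Share of the first-named gene in the summed RPKM of a pair of paralogs, in percent, for each library of Scid.adh.2c2 (brown) and ILC2/b6 (blue) with control guide (circles) or Bcl11b guide (triangles) and the mean as a line. The share of Ezh1 lies near 5% in the Scid.adh.2c2 controls and above 21% in ILC2/b6, and the share of Chd3 moves up in Scid.adh.2c2 and down in ILC2/b6.

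In PRC1, 3 of 7 genes rose and 1 fell in Scid.adh.2c2, as deposited and after median centring. Over all genes these shares were 35.1% and 22.7% as deposited, and 24.1% and 38.5% after centring. In ILC2/b6, 0 of 7 passed limma's test, and 2 (Bmi1 and Ring1) had an unadjusted p under 0.05. Rnf2 rose from 18.2 and 18.6 RPKM to 23.0 and 22.3 RPKM in Scid.adh.2c2 (log2 0.30 ± 0.05, limma adjusted p = 0.00136). In ILC2/b6 it was 5.60 and 5.77 RPKM against 5.26 and 5.17 RPKM, and the effects differed by -0.41 ± 0.06 (limma adjusted p = 0.00114). Pcgf1, the subunit of the variant complex that acts with Kdm2b and Bcor, rose in Scid.adh.2c2 from 6.84 and 7.41 RPKM to 9.76 and 9.53 RPKM (log2 0.41 ± 0.07, limma adjusted p = 0.00171), with a difference between lines of -0.49 ± 0.09 (limma adjusted p = 0.00259). Bmi1, the matching subunit of canonical PRC1, was not called in either line as deposited. It was 37.1 and 40.9 RPKM against 40.4 and 39.1 RPKM in Scid.adh.2c2, and 39.8 and 41.5 RPKM against 37.3 and 36.0 RPKM in ILC2/b6. The ILC2/b6 groups did not overlap (log2 -0.15, limma adjusted p = 0.0588), and the gene was called there after median centring (0.0305), with a replicate block (0.0405) and without control replicate 1 (0.0408). In Scid.adh.2c2 it was called without control replicate 2 alone of the 12 settings, with a log2 change of 0.10 (limma adjusted p = 0.0460).

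The chromodomain subunits of PRC1 split in Scid.adh.2c2. Cbx2 fell from 5.25 and 5.63 RPKM to 4.18 and 4.19 RPKM (log2 -0.34 ± 0.08, limma adjusted p = 0.00723). Cbx8 rose from 6.57 and 6.84 RPKM to 8.22 and 9.48 RPKM (log2 0.37 ± 0.08, limma adjusted p = 0.00691). Cbx7 was 3.89 and 4.12 RPKM against 3.75 and 4.02 RPKM and was not called. Cbx2 lost its call without guide replicate 1 or 2 (limma adjusted p = 0.0800 and 0.0776), and Cbx8 without guide replicate 2 (0.107) and under quantile normalization (0.0691). For both genes, the effect was not shown to differ between lines as deposited (limma adjusted p = 0.0517 and 0.128). For Cbx2 it differed after median centring (0.0126), with a pseudocount of 1 (0.0393) and without ILC2/b6 control replicate 1 (0.0305). Ring1, the paralog of Rnf2, was higher in both guide libraries of both lines, with 9.50 and 9.43 against 10.3 and 11.1 RPKM in Scid.adh.2c2 and 4.73 and 4.57 against 5.30 and 5.25 RPKM in ILC2/b6, and its log2 changes of 0.17 and 0.17 did not pass the test (limma adjusted p = 0.0523 and 0.111).

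Of the 5 other corepressors, Ncor1, the nuclear receptor corepressor, rose in both lines. It went from 34.7 and 39.3 RPKM to 45 and 44.8 RPKM in Scid.adh.2c2 (log2 0.28 ± 0.06, limma adjusted p = 0.00609) and from 22.6 and 23.7 RPKM to 26.3 and 26.7 RPKM in ILC2/b6 (log2 0.19 ± 0.04, limma adjusted p = 0.0270). The ILC2/b6 call held in 7 of 12 settings and was lost without guide replicate 1 or 2 or control replicate 1 (limma adjusted p = 0.0957, 0.151 and 0.0568). Hdac3, the deacetylase of the Ncor1 complex, the NAD-dependent deacetylase Sirt1, the scaffold Sin3a and Ctbp1, which binds PxDLS peptides, were not called in either line. Their log2 changes lay between -0.11 and 0.08.

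The effects differed between the lines for 11 of the 33 genes (33.3%), against 45.1% of 11600 genes. The effect was higher in ILC2/b6 for 3 of them (Mta1, Hdac2 and Rbbp4; 18% of all genes) and lower for 8 (Chd3, Mta3, Hdac1, Rcor1, Ezh1, Eed, Rnf2 and Pcgf1; 27.1% of all genes). After median centring, which moved this difference by 0.11 for all genes, the balance turned over, with 10 higher and 6 lower against 29.1% and 20.1% of all genes. On that scale Mta3 and Hdac1 were not called, and Rbbp7, Mbd3, Gatad2a, Rest, Ezh2, Suz12 and Cbx2 were, all with a higher effect in ILC2/b6. Over 15 settings, Chd3, Rbbp4, Rcor1, Ezh1, Eed, Rnf2 and Pcgf1 kept this call. Mta1 kept it in 8 and Hdac2 in 9, the rest being mostly fits without 1 library (the highest limma adjusted p was 0.102 for Mta1, without ILC2/b6 guide replicate 2, and 0.105 for Hdac2, without Scid.adh.2c2 guide replicate 2). Within Scid.adh.2c2, 9 of 18 calls held in all 12 settings: Chd3, Rcor1, Rnf2, Pcgf1 and Ncor1 rose and Mta1, Hdac2, Mbd3 and Ezh2 fell. Leaving out Scid.adh.2c2 guide replicate 2 left 10 members called, and leaving out guide replicate 1 left 13. In ILC2/b6 only Chd3 held in all 12 settings, and leaving out either guide library left 1 member called.

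Several companion genes of these complexes changed far more than the members. Of 108 further genes in 10 lists, 107 were in the tables and 96 could be tested in Scid.adh.2c2, where 37 rose and 24 fell (63.5% called, against 57.8% of all genes). After median centring the balance turned over there, with 26 that rose and 44 that fell. The balance over all genes turned over too, from 35.1% and 22.7% to 24.1% and 38.5%. In ILC2/b6, 5 of 95 rose and 5 fell (10.5%, against 14.5%). After median centring 4 rose and 7 fell there, against 6.17% and 8.64% of all genes. Mtf2, the Polycomb-like protein that tethers PRC2 to CpG islands, was 125 and 132 RPKM in the Scid.adh.2c2 controls and 43.2 and 41.0 RPKM with the guide (log2 -1.60 ± 0.05, limma adjusted p = 2.66e-07). In ILC2/b6 it was 8.24 and 8.84 RPKM against 8.44 and 8.68 RPKM, and the difference between lines was 1.60 (limma adjusted p = 8.84e-07). Pwwp2b, a NuRD-associated reader of histone H3 lysine 36 methylation, rose from 4.46 and 4.09 RPKM to 28.7 and 29.6 RPKM (log2 2.64 ± 0.06). Hdac5, a class IIa deacetylase that joins Ncor1 complexes, rose from 1.45 and 1.40 RPKM to 10.4 and 11.2 RPKM (log2 2.55 ± 0.08), while Hdac7, of the same class, fell from 67.1 and 71.5 RPKM to 34.2 and 34.5 RPKM (log2 -1.001 ± 0.04). Rcor2, the paralog of Rcor1, fell from 32.5 and 29.8 RPKM to 16.1 and 15.9 RPKM (log2 -0.94 ± 0.05), opposite to Rcor1. The Groucho gene Tle2 rose by 1.39, and Sap30, a subunit of the Sin3 complex, fell by 0.97 (log2). These 7 were named for the size of their called changes, among the 4 largest of each direction. None of them lost its call in any setting.

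In Scid.adh.2c2, 35.1% of all genes rose and 22.7% fell as deposited. By list, the genes that rose and fell were 5 and 1 of 7 tested for other NuRD genes, and 2 and 1 of 5 for PRC2. They were 6 and 7 of 20 for PRC1. For enzymes that remove the Polycomb marks and their partners they were 3 (Foxk1, Kdm6a and Kdm6b) and 0 of 7. They were 2 and 2 of 9 for partners of CoREST and REST, 3 and 1 of 7 for partners of Ncor1, and 6 and 3 of 14 for Sin3. All 5 Groucho genes tested rose (Tle2, Tle3, Tle4, Tle6 and Aes), and Ctbp2, the CtBP gene of that list, was not tested. Among the rises in these lists, Zfp296 (other NuRD genes) and Lcor (PRC2) met the filter only with their guide libraries. Of other deacetylases 3 rose and 1 fell of 9, and of the genes for H3K9 and DNA methylation 2 rose and 8 fell of 13, with a median log2 change of -0.20 against 0.05 for all genes tested. After median centring, where 24.1% of all genes rose and 38.5% fell, the counts were the same for other NuRD genes and for Groucho genes. On that scale 0 rose and 2 fell for PRC2, and 6 and 12 for PRC1. Genes that rose and fell numbered 3 and 3 for the enzymes that remove the marks with their partners, and 1 and 4 for partners of CoREST and REST. The counts were 2 and 1 for partners of Ncor1, 2 and 6 for Sin3, 1 and 4 for other deacetylases, and 1 and 11 for H3K9 and DNA methylation. In ILC2/b6, rises included Chd5, a remodeller gene (0.50 and 0.52 to 1.18 and 1.24 RPKM, log2 0.76), Pcgf5, a PRC1 subunit (0.44), and the CoREST partner Gse1 (0.27). The largest falls were Sap30 (-0.22), the H3K27 demethylase Kdm6b (-0.21), the short Groucho protein Aes (-0.19) and the Sin3 subunit Fam60a (-0.15). Of these 7, only the call of Chd5 held in every setting. Chd5 was below 1 RPKM in both controls and met the filter through its guide libraries alone. A fall from its control level could not have entered the filtered test. Kdm6b and Aes rose in Scid.adh.2c2, by 0.35 and 0.69, and the effects on both differed between lines (limma adjusted p = 0.000274 and 2.35e-05).

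Genes that Polycomb and REST are known to silence gave little signal to set beside these changes. Of 28 Polycomb target loci (Hox genes, Cdkn2a, Cdkn2b and developmental regulators), 0 reached the filter in Scid.adh.2c2. Their summed level was 1.21 to 1.25 RPKM in the controls and 0.84 to 1.06 RPKM with the guide. In ILC2/b6, 3 were tested with limma and 0 were called, with 0 at an unadjusted p under 0.05: Cdkn2a at 104 and 98.3 against 102 and 109 RPKM, Cdkn2b (5.12 and 4.96 against 5.35 and 5.74 RPKM) and Hoxb4 (2.00 and 1.65 against 2.13 and 1.73 RPKM). Of 16 REST target genes, 14 were in the tables. Syp, a synaptic vesicle protein, rose in Scid.adh.2c2 from 0.23 and 0.16 RPKM to 1.13 and 1.31 RPKM. It met the filter through its guide libraries alone, so a fall could not have entered the test. Chrnb2, an acetylcholine receptor subunit, fell from 2.61 and 2.74 RPKM to 2.03 and 2.07 RPKM. In ILC2/b6, 1 was tested with limma and 0 were called, with 0 at an unadjusted p under 0.05.

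Marker genes of cell types moved with the guide as well. In Scid.adh.2c2, the summed level of 12 pro-T markers went from 1200 to 1218 RPKM in the 2 controls to 859 to 867 RPKM with the guide, with 6 genes that fell and 3 (Cd3g, Cd3d and Cd247) that rose of 10 tested. The sum of 8 NK markers went from 203 to 215 RPKM to 241 to 245 RPKM, and its parts moved in opposite directions. Gzma, a granzyme, fell from 209 and 198 RPKM to 100 and 105 RPKM, while the 4 others tested (Ncr1, Tbx21, Nkg7 and Prf1) rose. Ncr1, an activating receptor, went from 0.14 and 0.26 RPKM to 37.6 and 36.3 RPKM. Tbx21, the factor T-bet, went from 3.86 and 3.82 RPKM to 55.0 and 56.9 RPKM, and Nkg7 from 0.99 and 1.5 RPKM to 43.2 and 42.6 RPKM. Of 7 ILC2 markers tested in this line, 5 rose and 2 fell. Ncr1, Nkg7, Prf1, Klrg1, Arg1, Il13 and the erythroid gene Hba-a1 met the filter in Scid.adh.2c2 only with their guide libraries. A fall in these genes could not have entered the test there. In ILC2/b6, 12 ILC2 markers summed to 9299 to 9460 RPKM and then 6913 to 7043 RPKM. Of these 12, 3 fell (Il5, Il13 and Areg), 2 rose (Klrg1 and Icos) and 7 were not called. Il5 went from 2671 and 2869 RPKM to 1881 and 1874 RPKM, and Il13 from 4472 and 4406 RPKM to 3025 and 3151 RPKM. The 8 NK markers summed to 810 to 811 RPKM and then 645 to 689 RPKM in ILC2/b6. Only 2 of them were tested there, and Gzma fell while Prf1 rose. Mast cell markers (7 genes) went from 21.4 to 23.5 RPKM to 62.7 to 62.9 RPKM in Scid.adh.2c2. That sum was almost all Cpa3 (23.5 and 21.4 to 62.4 and 62.7 RPKM), the only 1 tested, and Tpsb2, Tpsab1, Mcpt4 and Fcer1a were listed at 0 in every library. In ILC2/b6 the sum went from 34.7 to 36.6 RPKM to 108 to 110 RPKM. There 4 of 5 tested rose (Cma1, Tpsb2, Tpsab1 and Mcpt4, the last meeting the filter through its guide libraries alone), and Kit was not called. Markers of B cells summed to 0.23 to 5.03 RPKM over the 8 libraries, and those of myeloid cells to 0.16 to 3.95 RPKM. Erythroid markers went from 1.35 to 1.81 RPKM to 4.35 to 4.64 RPKM in Scid.adh.2c2 and from 16.3 to 18.1 RPKM to 28.0 RPKM in ILC2/b6, and the 1 gene tested, Hba-a1, rose in both lines. Stromal markers went from 5.53 to 5.97 RPKM to 1.33 to 1.46 RPKM in Scid.adh.2c2, where Pdgfrb fell, and from 5.5 to 6.16 RPKM to 11.1 to 12.8 RPKM in ILC2/b6, where Dcn rose. The part of these shifts in the members' changes was not tested.

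Bcl11b peaks lay at most of the 33 genes in both lines. In Scid.adh.2c2, 50 Bcl11b peaks were assigned to 27 members (81.8%), against 68.7% of genes tested in that line, and 23 members had one within 1 kb of the annotated start (69.7% against 59.8%). In ILC2/b6, 58 Bcl11b peaks were assigned to 24 members (72.7% against 66.6%), and 19 had one within 1 kb (57.6% against 52.6%). Kdm1a was assigned none in ILC2/b6, although its Bcl11b peak of Scid.adh.2c2 at -53 bases overlapped an ILC2/b6 Bcl11b peak that was not assigned to it. Each list came from 2 ChIP libraries together, so the peaks have no replicate check here, and no difference between lines was tested. Hdac2, Rbbp7, Gatad2b and Rnf2 had no Bcl11b peak in either line, and of these Hdac2, Rbbp7 and Rnf2 changed in Scid.adh.2c2. Runx3 peaks within 1 kb were found at 24 members in Scid.adh.2c2 and 30 in ILC2/b6 (72.7% and 90.9%, against 59.4% and 72.6%), Runx1 peaks at 20 and 22 (60.6% and 66.7%, against 49% and 49%), and GATA3 peaks at 3 and 3 (9.09% in each, against 11.3% and 15.5%). GATA3 peaks numbered 74 and 57 in all at the members. Of these, 4.05% and 5.26% lay within 1 kb of a start, near the 4.28% and 6.58% of all GATA3 peaks. Mbd2 was assigned 17 and 10 of them, as far as 887280 bases from its start in Scid.adh.2c2 and 493225 bases in ILC2/b6.

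**Figure D4:**
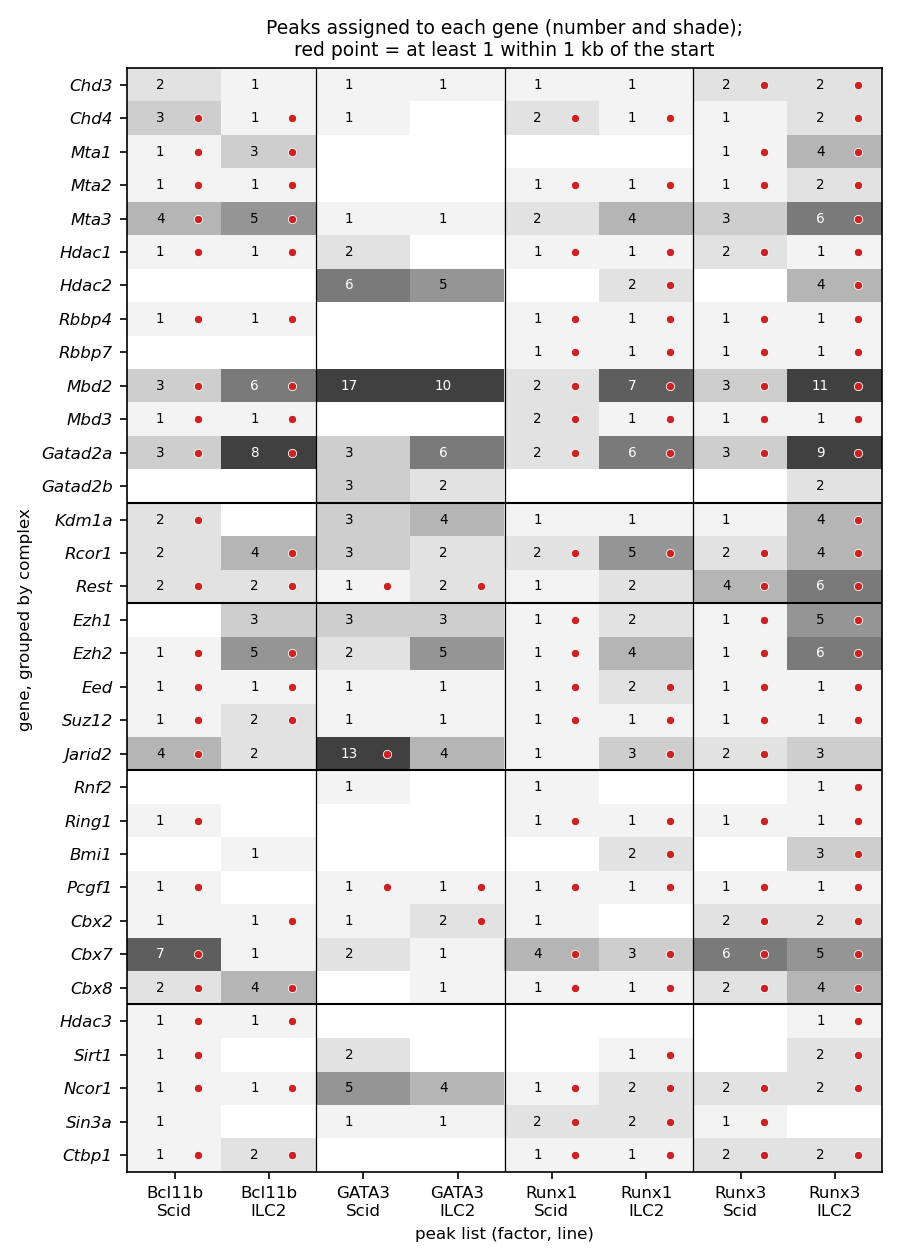
Number of peaks assigned to each of the 33 genes (rows, grouped by complex) in each of the 8 peak lists (columns), with darker cells for more peaks and a red point where at least 1 peak lies within 1 kb of the start. Red points are common in the Bcl11b, Runx1 and Runx3 columns and rare in the GATA3 columns, and Hdac2, Rbbp7, Gatad2b and Rnf2 are blank for Bcl11b in both lines.

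Called members were found both with and without a Bcl11b peak near the start. Of the 23 members with one within 1 kb in Scid.adh.2c2, 11 were called, and of the 10 without, 7 were. Among all genes tested there, 58.1% of those with and 57.3% of those without such a peak were called. In ILC2/b6, 3 of 19 members with and 1 of 14 without were called, beside 15.2% and 13.8% of all genes. These counts go by the gene a peak was assigned to, so Kdm1a counts as without in ILC2/b6. Of the 50 Bcl11b peaks at members in Scid.adh.2c2, 25 (50%) overlapped one of ILC2/b6, and of the 58 in ILC2/b6, 24 (41.4%) overlapped one of Scid.adh.2c2. Over all Bcl11b peaks these shares were 43.1% and 35.6%.

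Mbd3 carried the highest-scoring Bcl11b peak of any member within 1 kb of a start, in an intron at chr10:79861643-79861879 in Scid.adh.2c2 (score 111.4, the authors' peak score) and chr10:79861646-79861900 in ILC2/b6 (score 144.2). The peaks ranked in the top 1.90% and 1.09% of their lists. Suz12 had a Bcl11b peak just before its start in both lines, with scores of 84.0 and 39.1, and was not called in either as deposited. Cbx7 had 7 Bcl11b peaks in Scid.adh.2c2, 1 of them at -154 bases from the start (chr15:79763112-79763348, score 73.2), and 1 in ILC2/b6, at -17977 bases, and Cbx7 was not called in either line. Rcor1 had a Bcl11b peak at -1383 bases from its start in Scid.adh.2c2 and -1337 bases in ILC2/b6, and one at the start only in the ILC2/b6 list (chr12:112278022-112278276, score 26.3), the line in which it was not called. Pcgf1 had a peak at its start only in the Scid.adh.2c2 list (chr6:83028474-83028710, score 28.8).

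Chd3, which moved in opposite directions, had no Bcl11b peak within 1 kb of its start. An intronic Bcl11b peak about 1.3 kb downstream of the start was shared by both lines, at chr11:69181497-69181733 in Scid.adh.2c2 (score 36.9) and chr11:69181525-69181779 in ILC2/b6 (score 42.5). A second intronic Bcl11b peak, 2850 bases downstream at chr11:69179960-69180196 (score 42.4), was in the Scid.adh.2c2 list alone. That position overlapped GATA3, Runx1 and Runx3 peaks in both lines. The GATA3 peak there had a score of 276.2 in Scid.adh.2c2 and 121.8 in ILC2/b6, in the top 0.74% and 3.43% of their lists.

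Ezh2, which fell in both lines, had a Bcl11b peak over its start in both (chr6:47544879-47545115, score 31.2, in Scid.adh.2c2 and chr6:47544847-47545101, score 34.1, in ILC2/b6), reaching into the sequence printed above. The ILC2/b6 list held 4 more Bcl11b peaks assigned to Ezh2. The highest, at -26268 bases from the start (chr6:47571170-47571424), had a score of 119.5 and lay in the top 1.87% of the list. It overlapped GATA3, Runx1 and Runx3 peaks of ILC2/b6, the Runx3 peak with a score of 290.6, and a GATA3 peak of Scid.adh.2c2 with a score of 18.9. The other 3 lay 62347 to 69762 bases downstream of the start. Peaks are assigned to the nearest start in the authors' annotation, so a distant one may act on another gene or on none.

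**Figure D5:**
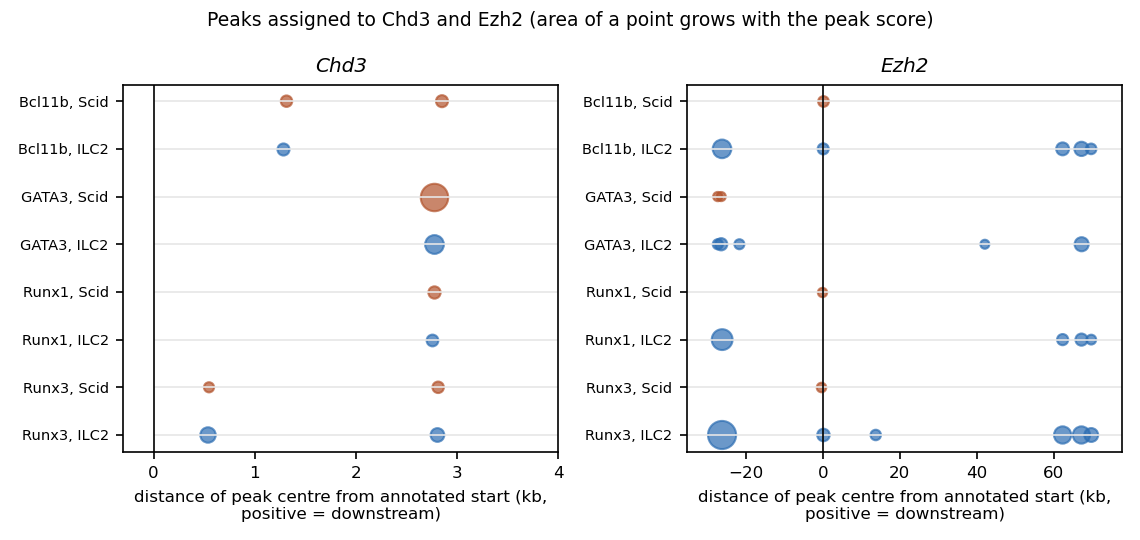
Distance of each peak assigned to Chd3 (left) and Ezh2 (right) from the annotated start, in kb, in the 8 peak lists of Scid.adh.2c2 (brown) and ILC2/b6 (blue), with larger points for higher scores. At Chd3 all 4 factors have a peak near 2.8 kb in Scid.adh.2c2 but Bcl11b has none there in ILC2/b6, and at Ezh2 the distal Bcl11b peaks are in ILC2/b6 only.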

How the data were processed

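The authors deposited, for each line, 1 table of RPKM per gene and library, per the file headers, and 8 peak lists in mm9 coordinates, each made from 2 ChIP libraries with a score per peak, per the file headers. Per the submitters' processing notes, the tools included STAR 2.4.0, RSEM 1.2.25, Bowtie 1.1.1, HOMER and edgeR 3.6.8; their roles are not given in the sources used here. Counting by strand is not stated. Values were log2(RPKM + 0.5) of genes with at least 1 RPKM in 2 libraries of the line, tested with limma 3.58.1 (R 4.3.3; trend, Benjamini-Hochberg adjustment over all genes, called at an adjusted p under 0.05). The difference between lines was an interaction contrast over 8 libraries. Log2 fold changes are on the log2(RPKM + 0.5) scale and understate changes of low genes. Tests were checked on simulated data with few changed genes, each changed by more than any member here. Both groups of a line had the same spread there, unlike the replicate pairs of Scid.adh.2c2. The check therefore does not cover changes of the members' size.

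The fit gave each line 2 libraries against 2. Depth was recovered from whole-read steps of the RPKM values, with all tested values whole within 0.1 read. Peaks went to the gene named in the authors' annotation, and overlap meant at least 1 shared base. Promoter windows came from RefSeq by symbol. The 16 ChIP libraries entered through the peak lists, and the 8 input libraries were not used. Alternatives were other pseudocounts, no filter, median centring, quantile normalization, a replicate block, a joint fit, libraries left out, and a stricter peak score. The members, the lists of companion, target and marker genes and the tests were chosen with earlier results of these data known. Named genes are every member, at most 4 companion genes per line and direction with the largest called change, and, for peaks, the highest-scoring near and far from the start; other loci, the tests of single target genes, and the choice of which of the rule's promoters to print were picked after their values were seen. The rule gave 4 promoters (Cbx8, Ezh2, Mbd3 and Ncor1), and the 2 with 1 RefSeq start and a peak reaching the window are printed. Some genes that this rule names are not reported here.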

Additional observations from a re-analysis of the deposited data

Results flagged for a closer look

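The guide effect differed between the lines by the interaction test for 11 members, given as ILC2/b6 minus Scid.adh.2c2 on the log2 scale. Chd3 (-0.84) was called in opposite directions in the 2 lines. For Rcor1 (-0.52), Pcgf1 (-0.49), Ezh1 (-0.44), Rnf2 (-0.41), Eed (-0.29), Mta3 (-0.25) and Hdac1 (-0.24), the gene rose in Scid.adh.2c2 and was not called in ILC2/b6. For Mta1 (0.18) and Hdac2 (0.18), it fell in Scid.adh.2c2 and was not called in ILC2/b6. For Rbbp4 (0.25), it rose in ILC2/b6 and was not called in Scid.adh.2c2. Median centring moved this difference by 0.11 for all genes, and on that scale Mta3 and Hdac1 did not pass the test, while Rbbp7, Mbd3, Gatad2a, Rest, Ezh2, Suz12 and Cbx2 did, each with a higher effect in ILC2/b6. The counts of higher and lower effects went from 3 and 8 to 10 and 6. Of the members 33.3% differed in this way, and of all genes 45.1%.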

How the results depend on the processing

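With 2 libraries per group, and in leave-one-out fits a lone library assumed to vary like the others, single calls rested on few values. Leaving out 1 library at a time gave 3760 to 6878 called genes and 10 to 25 called members in Scid.adh.2c2, and 807 to 2099 genes and 1 to 5 members in ILC2/b6. With no filter, 615 genes were called in ILC2/b6. Under median centring in Scid.adh.2c2, Hdac1 turned to -0.0138 and was not called, and Mta2 (-0.12) and Hdac3 (-0.13), not called as deposited, fell; these 3 were the reversals among changes that passed the test on either scale. Over all single-member fits, 321 stayed on the same side of the test in Scid.adh.2c2, 19 lost a call and 20 gained one. In ILC2/b6, 347 stayed, 9 lost a call and 7 gained one, and for the difference between lines these were 420, 16 and 26. With peak scores of at least 30, 17 members kept a Bcl11b peak in Scid.adh.2c2, 13 within 1 kb, and 15 and 11 in ILC2/b6, with 12 shared peaks in each direction. Replicate numbers are shared between groups, but the labels do not say that they pair libraries (correlation of deviations 0.04 in Scid.adh.2c2 and 0.11 in ILC2/b6). A fit with a replicate block called 5921 genes and 18 members in Scid.adh.2c2, 2258 and 5 in ILC2/b6, and 4878 and 10 for the difference. The causes of these shifts were not tested.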
